A study of Rattus norvegicus with 26 samples.

Results

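The 9 genes described here, of the red blood cell lineage, were followed across 26 arrays of rat thoracic aorta: 3 red cell membrane genes (Gypc, Epb42 and Rhag), 3 erythroid transcription factors (Gata1, Klf1 and Nfe2), the red cell enzyme Bpgm, and Fech and Slc25a37 of mitochondrial haem synthesis. They were chosen by symbol, through the RefSeq accession of each probe, and are 9 of the 15168 genes named on the array. They had 10 probes (2 for Bpgm), and all 9 genes passed the filter, which asked for a signal well above background on 6 or more of the 26 arrays. For Rhag and Nfe2 the saline arrays made up all of the arrays well above background, and for Epb42 nearly all. Passing the filter therefore already required a high saline level for these genes. The question was whether these genes follow the 4 globin genes used as a yardstick below, whose RNA was far lower in every treated group than in saline.

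The animals were male spontaneously hypertensive rats, a strain that develops high blood pressure by inheritance, and, per the labels, each array read RNA extracted separately from the aorta of a rat. All rats were dosed by mouth for 4 weeks and killed at 28 days: the control group had saline at 7.5 mL per kg (n = 8 arrays), and the others had the herbal Songling Xuemaikang capsule (SXC), either 236.25 mg per kg (the low dose, n = 6) or 708.75 mg per kg (the high dose, n = 6), or at 21.6 mg per kg (n = 6) valsartan, a drug that blocks type 1 receptors of angiotensin II. The sources used here give no age for the rats, the study's text gives 8 rats for valsartan of which 6 arrays were analysed here, and there was no group of rats with normal blood pressure among these arrays.

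Red cells carry oxygen with haemoglobin, a protein of globin chains and haem. They are made in the bone marrow, where GATA1, KLF1 and NF-E2 switch on the genes of globin, haem synthesis and the membrane, and the young red cells (reticulocytes) that leave the marrow keep some RNA after losing their nucleus. The aortic wall makes no red cells, so red cell RNA in a piece of aorta is usually taken as coming from blood held in or on the tissue, while housekeeping members such as FECH, which inserts iron into haem, are used in all cells with mitochondria. In such bulk RNA, fewer cells of a type and less RNA per cell cannot be told apart.

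The promoters of Fech, Klf1 and Rhag are shown because they are the 3 of the 7 members with a promoter in the RefSeq table that hold the letters GATAA, the core that GATA factors such as GATA1 bind, in the 250 bases before to 50 bases after the gene's start. Epb42, Bpgm, Gata1 and Gypc have an entry without these letters, and Nfe2 and Slc25a37 have none. The 250 bases before the start are printed 5′ to 3′ on the gene's strand, and capitals mark GATAA or CACCC (the core that KLF1 and related factors bind) on either strand, so that TTATC and GGGTG are their reverse complements.
Fech, chr18:60248526-60248775, minus strand, build GRCr8: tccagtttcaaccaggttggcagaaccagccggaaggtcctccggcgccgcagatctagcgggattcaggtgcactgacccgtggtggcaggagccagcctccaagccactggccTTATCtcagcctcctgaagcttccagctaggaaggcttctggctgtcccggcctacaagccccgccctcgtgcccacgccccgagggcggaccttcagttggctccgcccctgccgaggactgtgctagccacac
Klf1, chr19:40158652-40158901, minus strand, build GRCr8: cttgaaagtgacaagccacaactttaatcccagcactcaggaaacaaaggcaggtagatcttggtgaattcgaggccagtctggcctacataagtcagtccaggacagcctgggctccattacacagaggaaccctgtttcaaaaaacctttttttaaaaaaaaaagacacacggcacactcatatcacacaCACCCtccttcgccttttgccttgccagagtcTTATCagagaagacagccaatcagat
Rhag, chr9:27594391-27594640, minus strand, build GRCr8: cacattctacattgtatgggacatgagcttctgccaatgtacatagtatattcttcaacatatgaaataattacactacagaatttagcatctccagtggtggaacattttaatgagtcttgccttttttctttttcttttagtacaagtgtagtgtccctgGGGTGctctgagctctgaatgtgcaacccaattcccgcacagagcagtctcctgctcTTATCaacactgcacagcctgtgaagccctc
In Klf1 and Rhag the match to GATAA begins 26 and 31 bases before the start, and in Fech 135 bases before it. Of all 33469 promoters in the table, 26.5% hold GATAA, 54.9% hold CACCC and 4.63% hold TGAGTCA, a form of the site that NF-E2 binds. CACCC was present in 6 of the 7 members' windows and TGAGTCA in 0 of 7. These are matches of letters in the reference and no measure of binding.

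Levels are log2 of the background-subtracted spot signal relative to the 75th percentile of all gene spots on the same array, so a level of 0 is the 75th percentile and a difference of 1 is a 2-fold difference. A probe is called well above background where the scanner software marks it so. The share of probes well above background was 67.3% to 76.2% on saline arrays, 70.0% to 77.0% with the low dose, 28.7% to 79.3% with the high dose and 32.4% to 56.5% with valsartan. The detector gain was lower for 10 arrays, namely all of valsartan and numbers 3 to 6 of the high dose, and the lowest level that counted as well above background was -6.75 to -5.53 on saline and low-dose arrays against -3.99 to -1.64 on valsartan arrays. The saline arrays were scanned on a day of their own, 82 days after the last treated array, so against saline the scan batch and the treatment cannot be told apart. Saline arrays 1 and 5, 2 and 6, and 3 and 7 deviated together across probes (r = 0.713, 0.660 and 0.872), so n = 8 may overstate the number of independent saline samples. For that reason a value in which the saline group is 3 pair averages, with arrays 4 and 8 left out, is given where it changes a call. Groups were compared with limma, and a call is a Benjamini-Hochberg adjusted p under 0.05 over all 23744 probes tested. Across them the median log2 change against saline was 0.22 for the high dose, 0.08 for the low dose and 0.18 for valsartan.

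Of the 9 members, 5 were lower and 0 higher than in saline with the high dose (Bpgm, Fech, Gypc, Nfe2 and Slc25a37), where 22.1% of all probes tested were lower and 34.8% higher. With the low dose 5 were lower and 0 higher (Bpgm, Fech, Epb42, Nfe2 and Rhag), where 17.2% of all probes were lower and 22.4% higher. Nfe2 and Rhag passed the filter only through saline arrays, and Epb42 nearly only, so their lower calls were favoured in advance. A filter of 13 arrays leaves these 3 untested, and 2 members were then called with the low dose. With valsartan 4 were lower and 0 higher (Bpgm, Fech, Gypc and Slc25a37), where 25.5% of all probes were lower and 32.8% higher. Bpgm and Fech were lower in all 3 comparisons, which share the saline arrays. With detector gain as a block in the fit 4, 5 and 1 members were lower in the same order, and for valsartan the 1 was Fech. Of all 23744 probes, 6442, 9968 and 3256 were called in that fit, in either direction. Its high-dose changes rest on the 2 high-dose arrays at the higher gain. Its valsartan changes are adjusted by the gap between the high-dose arrays at the 2 gains. Without that block the median change of the members was -0.996, -1.40 and -0.75 in the same order. With saline as 3 averages the counts were 2, 4 and 3, and 9721, 5635 and 9894 of all probes were called in either direction. After normexp background correction 3 were lower and 3 higher with the high dose (Epb42, Gata1 and Klf1 higher), 2 lower with the low dose, and 3 lower and 4 higher with valsartan. There 16963, 9429 and 18266 of all probes were called, so with the high dose and valsartan most probes were called.

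**Figure D1:**
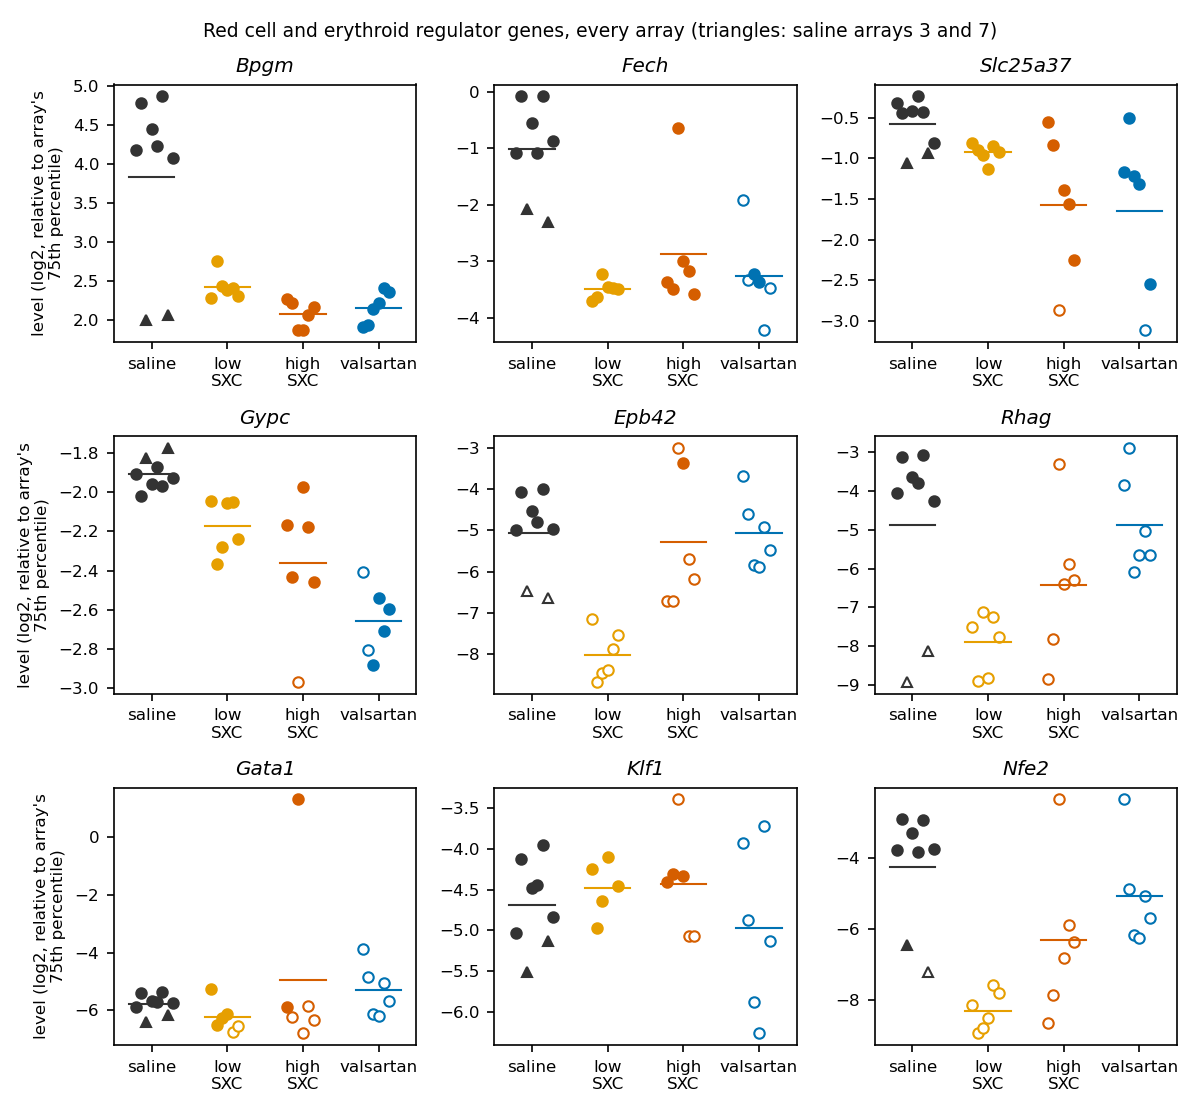
Level of each of the 9 genes on every array (log2, relative to the array's 75th percentile; y axes differ between panels), by group, with a line at the group mean. Filled points were well above background and open points were not. Triangles are saline arrays 3 and 7, the lowest saline arrays for 8 of the 9 genes, and Bpgm is the gene with filled points on all 26 arrays.

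Bpgm, which makes the 2,3-bisphosphoglycerate that lowers the oxygen affinity of haemoglobin, was the one member well above background on all 26 arrays. Its level ran from 1.99 to 4.86 in saline (median 4.19), from 2.29 to 2.75 with the low dose (median 2.39), from 1.87 to 2.26 with the high dose (median 2.12) and from 1.90 to 2.40 with valsartan (median 2.18). The other 6 saline arrays lay at 4.07 or more, above every treated array, while saline arrays 3 and 7, at 1.99 and 2.06, lay among the high-dose and valsartan arrays and below every low-dose array. The log2 change was -1.75 ± 0.34 (SE) for the high dose, -1.40 ± 0.34 for the low dose and -1.67 ± 0.34 for valsartan, that is 3.36-fold, 2.64-fold and 3.18-fold lower (limma, adjusted p = 8.78e-05, 0.00155 and 0.000148). With gain as a block the valsartan change was -1.42 and did not pass (limma, adjusted p = 0.148). Without saline arrays 3 and 7, a choice made after the data were seen, the changes were -2.35, -2.00 and -2.27. The second, dimmer probe of Bpgm fell by more: -3.05 ± 0.51, -3.39 ± 0.51 and -3.82 ± 0.51, with a saline range of -1.47 to 1.09. Its lowest saline values were again on arrays 3 and 7. On valsartan arrays that probe was well above background on 1 of 6. Both probes carry the same accession, and no level of one is set against the other.

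Fech, ferrochelatase, the last enzyme of haem synthesis, ran from -2.31 to -0.08 in saline (median -0.97) and from -3.71 to -3.23 with the low dose (median -3.48). Those groups did not overlap, and the share of all probes that separate in this way was not counted. With the high dose it ran from -3.58 to -0.64 (median -3.27), where array 3 lay at -0.64, inside the saline range, and the other 5 at -2.99 or less. With valsartan it ran from -4.22 to -1.91 (median -3.34) and was well above background on 2 of 6 arrays, at -3.23 and -3.36. Fech was lower in all 3 comparisons, by log2 changes of -1.86 ± 0.41 (SE), -2.48 ± 0.41 and -2.24 ± 0.41 for the high dose, the low dose and valsartan (limma, adjusted p = 0.00039, 2.54e-05 and 4.66e-05).

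Slc25a37, mitoferrin 1, which brings iron into mitochondria and is used most by developing red cells, ran from -1.05 to -0.23 in saline (median -0.43), from -1.13 to -0.80 with the low dose (median -0.91), from -2.87 to -0.55 with the high dose (median -1.47) and from -3.12 to -0.50 with valsartan (median -1.27). The groups overlapped in each comparison. It was lower by 1.99-fold with the high dose (-0.996 ± 0.333, limma adjusted p = 0.0129) and by 2.09-fold with valsartan (-1.06 ± 0.33, adjusted p = 0.0082), and did not pass with the low dose (-0.35 ± 0.33, adjusted p = 0.437). The 2 high-dose arrays scanned at the higher gain lay at -0.55 and -0.84, and the 4 at the lower gain at -1.39 or less. Of the valsartan arrays, all at the lower gain, 4 lay between -1.32 and -0.50, with array 2 inside the saline range, and the other 2 at -2.55 and -3.12. On higher-gain arrays alone, a choice made after the data were seen, the high-dose change was -0.11 and the low-dose change of -0.35 passed (limma adjusted p = 0.666 and 0.0376). With gain as a block in the fit the valsartan change was 0.26 (adjusted p = 0.822). With saline as 3 averages neither call held (limma adjusted p = 0.0964 and 0.0752). With slide as a random block the valsartan call was lost (adjusted p = 0.0566), and without high-dose array 3 the high-dose change was -0.74 (adjusted p = 0.0531).

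Gypc, glycophorin C, which anchors the red cell membrane to its spectrin skeleton and is also made in many other tissues, had the narrowest saline spread of the 9 genes. Its level ran from -2.02 to -1.77 in saline (median -1.92), from -2.37 to -2.05 with the low dose (median -2.15), from -2.97 to -1.97 with the high dose (median -2.31) and from -2.88 to -2.41 with valsartan (median -2.65). Every valsartan array and every low-dose array lay below every saline array, while high-dose array 4 overlapped with saline. Valsartan arrays 1 and 2, at -2.41 and -2.81, were not well above background, so their place below saline is not a measured one. The share of all probes that separate in this way was not counted. Gypc was 1.37-fold lower with the high dose (-0.46 ± 0.14, limma adjusted p = 0.00694, and 0.0781 with saline as 3 averages) and 1.68-fold lower with valsartan (-0.75 ± 0.14, adjusted p = 5.79e-05), and the low-dose change of -0.27 ± 0.14 did not pass (adjusted p = 0.133). The low-dose change passed when arrays were scaled to probes well above background on all of them (-0.45, limma adjusted p = 0.00713) and on higher-gain arrays alone (-0.27, adjusted p = 0.0157). With gain as a block the high-dose and valsartan changes were -0.39 and -0.66 and did not pass (limma, adjusted p = 0.155 and 0.0977). After normexp background correction they were -0.02 and -0.06 (adjusted p = 0.894 and 0.61).

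Rhag and Epb42, both of the red cell membrane, were measurable in saline but in hardly any treated array. Rhag, the Rh-associated glycoprotein, a subunit of the Rh complex, ran from -8.91 to -3.08 in saline (median -3.93), and was well above background on 6 of 8 saline arrays and on 0 of the 18 treated arrays. The 2 saline arrays without a measurable level were 3 and 7. With the low dose Rhag ran from -8.89 to -7.12 (median -7.62), at least 2.74-fold lower than in saline (limma, adjusted p = 0.00742). That call was lost with saline as 3 averages (adjusted p = 0.0773), with slide as a random block (0.063) and after normexp background correction, where the change was -0.56 (0.138). Against the high dose (-8.83 to -3.32, median -6.34) and valsartan (-6.10 to -2.89, median -5.34) the detection limit of those arrays lay too high to give a fold, and neither passed the test (limma, adjusted p = 0.133 and 0.996).

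Epb42, protein 4.2, which ties the anion exchanger band 3 to ankyrin, ran from -6.63 to -3.99 in saline (median -4.88) and was well above background there on all arrays but 3 and 7. With the low dose it ran from -8.67 to -7.16 (median -8.14), below background on all 6 arrays and at least 2.42-fold lower (limma, adjusted p = 0.000185), a call that was lost after normexp background correction (-0.18, adjusted p = 0.642). With the high dose it was well above background on 1 of 6 arrays (array 4, at -3.37), ran from -6.72 to -2.99 (median -5.94) and did not pass (-0.22 ± 0.58, adjusted p = 0.758). On the higher-gain arrays alone the high-dose change was -1.66 (limma, adjusted p = 0.0407), from 2 arrays, both below background. With valsartan it ran from -5.88 to -3.67 (median -5.20), below background on all 6 arrays, and did not pass (adjusted p = 0.99), with no fold to give.

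The 3 transcription factors were among the faintest members. Nfe2, the large subunit of NF-E2, which also drives platelet formation in megakaryocytes, ran from -7.19 to -2.91 in saline (median -3.75) and was well above background on 7 saline arrays, array 7 being the exception, and on 0 treated arrays. With the low dose it ran from -8.92 to -7.58 (median -8.32), at least 4.20-fold lower (limma, adjusted p = 0.00025), a call that was lost after normexp background correction (-0.75, adjusted p = 0.11). With the high dose it ran from -8.64 to -2.35 (median -6.58), at least 1.04-fold lower (adjusted p = 0.0314). The high-dose call was lost without any one of saline arrays 2, 4, 6 or 8 or high-dose arrays 1, 2 or 4 (changes of -1.98 to -1.59, adjusted p of 0.05 to 0.0966) with saline as 3 averages (adjusted p = 0.188) and with slide as a random block (adjusted p = 0.0807). After normexp background correction the change turned to 0.12 (adjusted p = 0.778). On the higher-gain arrays alone it was -3.98 (adjusted p = 0.00295). With valsartan Nfe2 ran from -6.24 to -2.35 (median -5.38) and did not pass (adjusted p = 0.401).

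Gata1, the factor that starts the erythroid, megakaryocyte and mast cell programs, was faint, though well above background on all 8 saline arrays (-6.41 to -5.37, median -5.71) and on 4 of 6 low-dose arrays (-6.75 to -5.25 over all 6, median -6.39). With the high dose it was well above background on 2 of 6 arrays and ran from -6.79 to 1.33 (median -6.05), array 3 at 1.33 standing 7.17 above the next. Neither SXC comparison passed the test (0.83 ± 0.80 for the high dose and -0.45 ± 0.80 for the low dose, limma adjusted p = 0.386 and 0.694), and without high-dose array 3 the high-dose change was -0.43 (adjusted p = 0.303). On valsartan arrays it was below background on all 6 (-6.21 to -3.86, median -5.35, limma adjusted p = 0.606), with no fold to give.

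Klf1, the factor that switches on adult beta-globin, ran from -5.52 to -3.95 in saline (median -4.66), from -4.97 to -4.10 on the 5 low-dose arrays that measured it (median -4.46, array 5 having an outlier spot), and from -5.07 to -3.39 with the high dose (median -4.36, well above background on 3 of 6 arrays). These groups overlapped, and neither change passed (0.26 ± 0.37 for the high dose and 0.21 ± 0.39 for the low dose, limma adjusted p = 0.556 and 0.711). The high-dose value turned to -0.89 with quantile normalisation as well as in the authors' table, and did not pass there. With valsartan Klf1 ran from -6.27 to -3.72 (median -5.00), below background on all 6 arrays (adjusted p = 0.532).

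The globin genes served as the yardstick. A globin index was taken on each array as the mean level of the brightest probe of Hba-a1, Hbb, Hbb-b1 and Hbb-bs. The rule took candidate globin genes well above background on all saline arrays, which left out Hba-a3. Among the genes of the index, Hbb, Hbb-b1 and Hbb-bs are closely related beta-globin genes whose probes may read each other's RNA. The index ran from 5.67 to 7.62 in saline (median 7.24), from 0.83 to 2.62 with the low dose (median 1.51), from -0.36 to 1.94 with the high dose (median 1.69) and from -0.20 to 1.82 with valsartan (median 0.27). Every treated array lay below every saline array, and the share of all probes that separate in this way was not counted. The index differed by -5.64 ± 0.45 (SE) for the high dose, -5.20 ± 0.41 for the low dose and -6.38 ± 0.43 for valsartan (exact permutation test over arrays, 2-sided, p = 0.000333 each, the smallest that 6 against 8 arrays can give). Alas2, the erythroid form of the first haem enzyme and the counterpart of Fech at the other end of the pathway, changed by -4.45 ± 0.67, -5.96 ± 0.67 and -4.73 ± 0.67 (limma, adjusted p = 3.9e-06, 1.37e-07 and 1.59e-06), with well above background levels on 1 of 6 valsartan arrays.

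**Figure D2:**
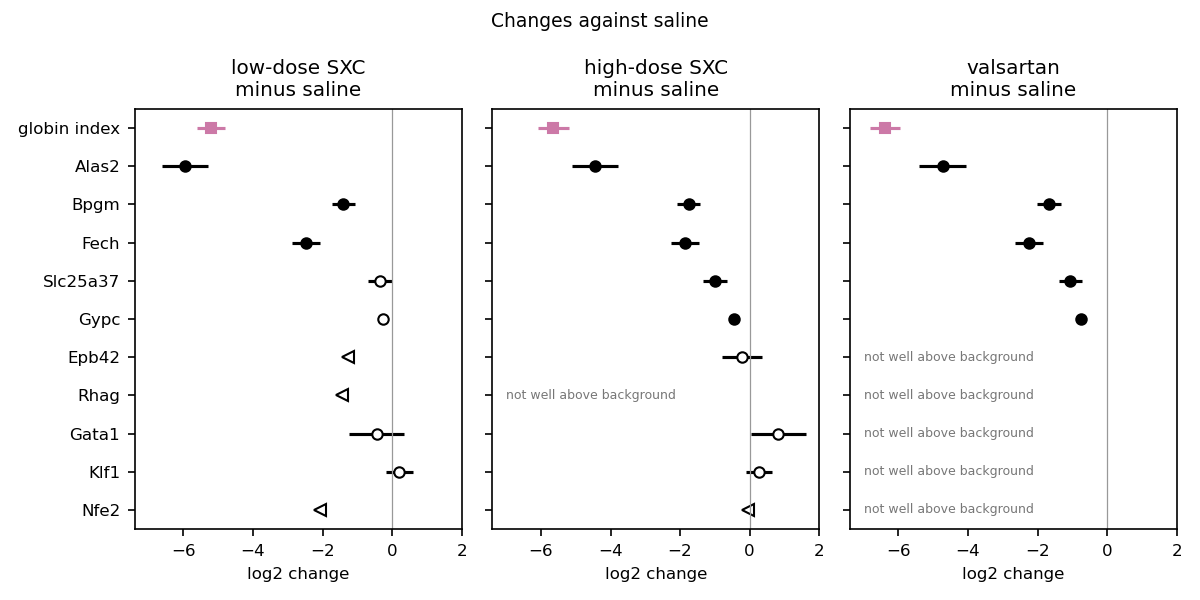
Log2 change against saline for the globin index, Alas2 and the 9 genes in the 3 comparisons. Circles and the square are differences of group means with their standard errors (filled circles passed the limma test, open circles did not), open triangles are lower bounds of a fall where no treated array was well above background, and grey text marks genes with no fold to give. The globin index lies at -5.20 to -6.38. Each gene is shown by its brightest probe, and among these Fech with the low dose, at -2.48, is the lowest measured member. The second probe of Bpgm, not shown, lies lower.

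Members were compared with the globins through the difference between a member's level and the globin index of the same array. Its shift against saline can be read only where the member was measured: a member near the detection limit could not be seen to fall as far as the globins did. In 8 cases the member was well above background on every array of both groups that gave it a value. These were Bpgm in all 3 comparisons, Fech with both SXC doses, and Gypc, Slc25a37 and Klf1 with the low dose. In each of them the difference rose, that is, the member fell less than the globins or did not fall (exact permutation test over arrays, 2-sided, adjusted over 27 tests). This set holds only members that stayed measured. From their saline means, Fech, Gypc, Slc25a37 and Klf1 could not have fallen as far as the globins and met that rule. Their rise was therefore fixed in advance, and their tests cannot decide whether they follow the globins. With the low dose Bpgm (saline mean 3.83, detection limits -6.75 to -5.53) could have fallen as far and stayed measured. With the high dose and valsartan such a fall would pass the detection limit of some arrays. The shifts of Bpgm given here are those of its brightest probe, which changed by -1.40 with the low dose. Its second probe, also well above background on every saline and low-dose array, changed by -3.39 ± 0.51. That is nearer to the index change of -5.20, so the size of the gap depends on the probe. The second probe was not tested against the index on its own. For Bpgm the shift was 3.89 ± 0.41 (SE) for the high dose, 3.80 ± 0.36 for the low dose and 4.71 ± 0.37 for valsartan, higher on every treated array than on every saline array (exact test, adjusted p = 0.000375 each). The share of all probes with such a separation was not counted. For Fech the shift was 3.78 ± 0.63 for the high dose and 2.72 ± 0.34 for the low dose, the lowest of the 8 (exact test, adjusted p = 0.000375 each). With the low dose it was 4.94 ± 0.41 for Gypc and 4.86 ± 0.33 for Slc25a37 (exact test, adjusted p = 0.000375 each), close in size to the whole change of the globins, and 5.59 ± 0.36 for Klf1, over 5 low-dose arrays (exact test, adjusted p = 0.000839).

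In the other cases some or all treated arrays were not well above background, and no test is read from them. Gypc was measured on 5 of 6 arrays with the high dose and 4 of 6 with valsartan, and its shifts over all arrays were 5.18 ± 0.48 (SE) and 5.63 ± 0.41. Slc25a37 was measured on 5 of 6 arrays in both groups, and its shifts were 4.65 ± 0.59 and 5.32 ± 0.63. Rhag, Epb42 and Nfe2 were measured on so few treated arrays that they cannot be ranked against the globins: with the low dose their falls are known only as the bounds of at least 2.74-fold, 2.42-fold and 4.20-fold given above.

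**Figure D3:**
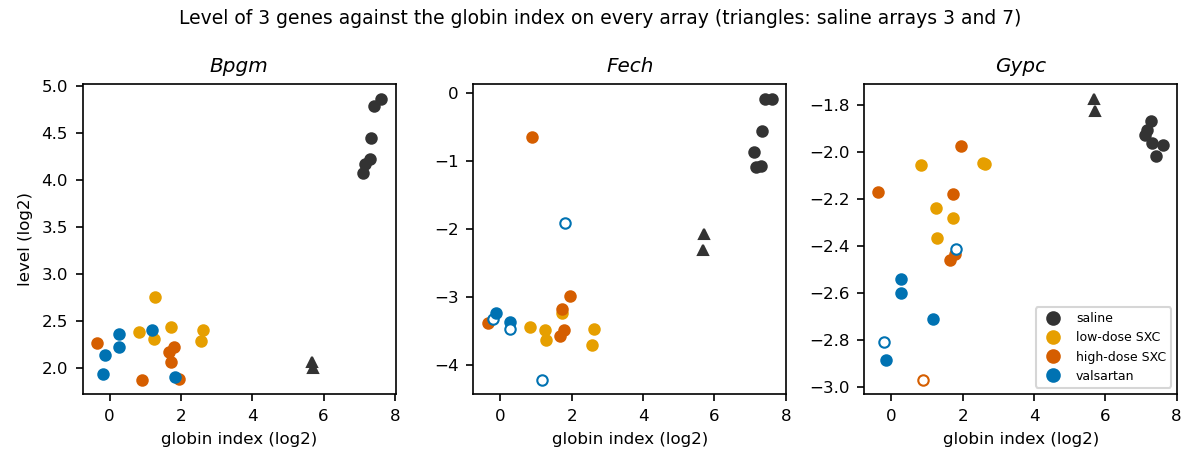
Level of Bpgm, Fech and Gypc against the globin index on each of the 26 arrays (both log2), coloured by group, with open points for arrays where the gene was not well above background. Saline arrays 3 and 7 (triangles, globin index 5.71 and 5.67) have Bpgm levels of 1.99 and 2.06, within the span of the treated arrays, whose globin index is 2.62 or less.

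Within the saline group most members and the globins were low on the same arrays. Arrays 3 and 7 had the 2 lowest levels of 8 of the 9 members, Gypc being the exception, and also of all 4 globins in the index and of Alas2. The step from these arrays to the next lowest saline array was 3.86 for Rhag, 2.61 for Nfe2, 2.01 for Bpgm, 1.47 for Epb42 and 1.00 for Fech. For Slc25a37, Gata1 and Klf1 it was 0.12, 0.26 and 0.10, and for Gypc the whole saline range was 0.25. Alas2 had a step of 3.53 and the globins had steps of 1.41 for Hba-a1, 0.38 for Hbb, 1.15 for Hbb-b1 and 2.52 for Hbb-bs. On saline arrays 3 and 7 the brightest Bpgm probe was as low as on treated arrays, while the lowest saline globin index was 3.05 above the highest treated one. The second Bpgm probe, at -1.41 and -1.47 on those saline arrays, lay above every low-dose array.

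Markers of other tissue moved on the same saline arrays. The mean level of 9 perivascular fat genes was 2.97 and 2.86 on arrays 3 and 7 and 2.28 on array 8, against -1.35 to 0.97 on the other 5, and that of 10 smooth muscle genes was 2.33 and 1.93 on arrays 3 and 7 against 3.07 to 3.56 on the rest. Of the 11 platelet and megakaryocyte genes the mean was -4.05 and -3.97 on arrays 3 and 7, against -2.47 to -1.71. Array 8, with fat markers near those of arrays 3 and 7, had Rhag at -4.25, Bpgm at 4.07 and a globin index of 7.11, close to the remaining saline arrays. The part of tissue makeup in the members' levels was not tested. Since arrays 3 and 7 also deviated together over all probes, they are at most a pair of low values and may be 1.

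**Figure D4:**
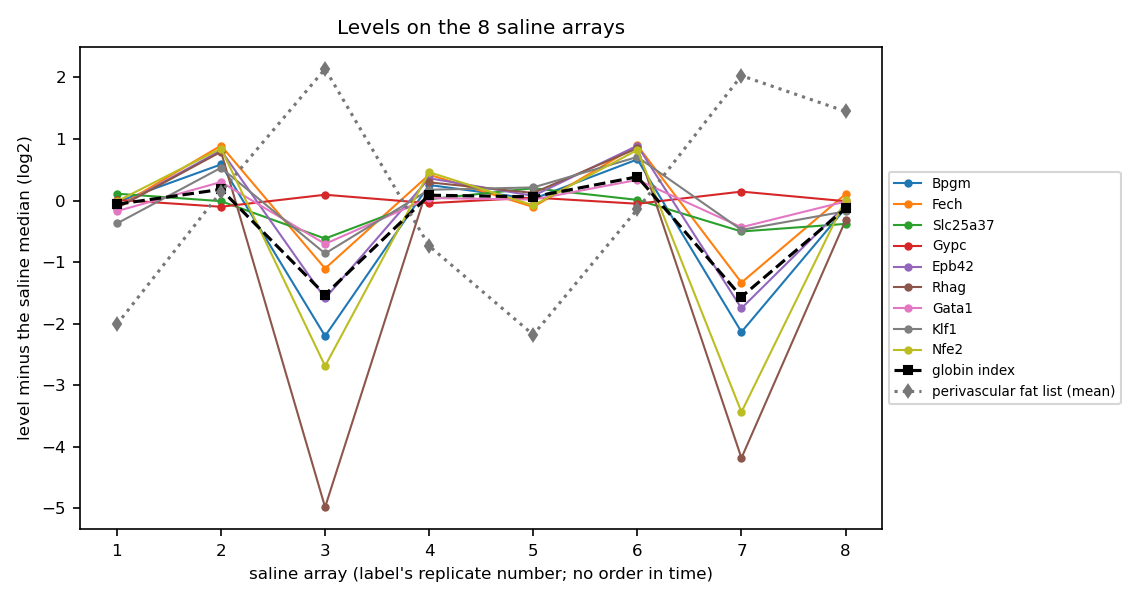
Levels on the 8 saline arrays, each minus its median over these arrays (log2), for the 9 genes, the globin index (dashed) and the mean of 9 perivascular fat genes (dotted). Lines join values of 1 gene and carry no order in time. Rhag, Nfe2 and Bpgm dip furthest on arrays 3 and 7, where the fat genes peak, and Gypc stays level.

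The wider lists to which the members belong were counted with the same limma test and include the members. Their counts of lower calls depended on the fit. Of 15 such counts against saline, those of the globin list included, 6 moved with gain as a block, small shifts aside. With slide as a random block 3 of 15 moved, and with saline as 3 averages 3 of 15. Over all probes, 22.1%, 17.2% and 25.5% were lower with the high dose, the low dose and valsartan, and 34.8%, 22.4% and 32.8% were higher. Of 7 tested globin genes, a list without members, 5 were lower and 1 higher with the high dose. The counts were 5 and 0 with the low dose and 5 and 1 with valsartan. Of 20 tested genes of the red cell membrane and skeleton, 8 were lower and 3 higher with the high dose, 9 and 2 with the low dose and 8 and 1 with valsartan (medians -0.33, -0.63 and -0.38), so that higher calls were fewer than among all probes. Add2, beta-adducin, which caps actin in the red cell skeleton, was at least 8.60-fold lower with the high dose, at least 34.7-fold with the low dose and at least 3.64-fold with valsartan. No treated array had Add2 well above background, so it passed the filter only through saline arrays. Its lower calls were therefore favoured in advance, as were those of Rhag and Epb42 in the same counts. Slc4a1, the anion exchanger band 3, was at least 3.58-fold lower with valsartan. Xk, a membrane protein bound to the Kell blood group protein, was 2.49 ± 0.28 higher on the log2 scale with valsartan (limma, adjusted p = 4.89e-08), but 0.96 with gain as a block, which did not pass (adjusted p = 0.109).

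Of 17 tested erythroid transcription factors and partners, 5 were lower and 4 higher with the high dose, 3 and 3 with the low dose and 4 and 2 with valsartan, shares of lower calls near those of all probes, and the medians lay near 0 (-0.02, -0.03 and -0.09). Lyl1 and Lmo2, partners of GATA1 complexes that endothelial cells also make, were at least 6.30-fold and 3.04-fold lower with valsartan. Mafk, a small subunit of NF-E2, was lower with valsartan by a log2 change of -1.02 ± 0.20 (limma, adjusted p = 0.000123), which with gain as a block was -0.08 (adjusted p = 0.91). Tal1 was 1.02 ± 0.22 higher with valsartan by its brightest probe (limma, adjusted p = 0.00029), but its probes disagreed, and their mean was -0.92 (adjusted p = 0.00144). With gain as a block the brightest probe gave 0.57 and did not pass (adjusted p = 0.365). The 9 endothelial markers also moved, with 7, 7 and 6 lower and 1 higher in each comparison, and their part in the Lyl1 and Lmo2 values was not tested.

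In haem synthesis and mitochondrial iron import, 10 of 22 tested genes were lower and 1 higher with the high dose, 8 and 3 with the low dose and 11 and 4 with valsartan (medians -0.41, -0.39 and -0.65). Beside Alas2, the transporters Abcb6 (-1.46 ± 0.20, limma adjusted p = 7.26e-07) and Slc25a39 (-2.03 ± 0.24, adjusted p = 1.12e-07) were lower with valsartan, and Ppox, an enzyme just before Fech, was at least 1.15-fold lower, a call that was lost with gain as a block (limma, adjusted p = 0.186) and after normexp background correction (adjusted p = 0.242). Of 16 red cell enzymes and late erythroid genes, 9 were lower and 3 higher with the high dose, 11 and 0 with the low dose and 8 and 3 with valsartan (medians -0.98, -1.60 and -1.26). Car2, carbonic anhydrase 2, was at least 31.3-fold lower with valsartan, and Mkrn1 (-3.61 ± 0.32), Prdx2, an abundant red cell peroxidase (-2.05 ± 0.23), and Cat, catalase (-2.26 ± 0.27), were lower as well (limma, adjusted p = 1.09e-09, 6.52e-08 and 1.26e-07).

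Genes of other cell types that the sample could hold were counted as well. Of 13 macrophage genes 11, 10 and 11 were lower with the high dose, the low dose and valsartan and 1, 0 and 0 higher, and of 9 fat genes 6, 7 and 7 were lower and 0 higher. Of 11 platelet and megakaryocyte genes 5, 5 and 6 were lower and 2, 1 and 2 higher, and of 8 mast cell genes 2, 4 and 2 were lower and 1 higher in each, for the high dose and valsartan near the share of lower calls among all probes. In the macrophage and fat lists most genes were called lower, a larger share than among all probes. Of 6 neutrophil genes 3 were lower in each and 2, 1 and 2 higher. Of the 10 smooth muscle genes, which mark the labelled tissue, 9 or 10 were well above background on every array, with 3, 2 and 3 lower and 2 higher in each comparison. The mean level of the macrophage genes ran from -0.97 to 0.07 in saline and from -2.96 to -1.89 on treated arrays, and that of the platelet genes from -4.05 to -1.71 against -4.52 to -2.68. The part of these cells in the members' changes was not tested.

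Between the treated groups few members differed. High-dose against low-dose SXC gave 0 lower and 1 higher member, against 6.00% and 16.4% of all probes: Epb42 was at least 2.07-fold higher (limma, adjusted p = 0.00288), resting on 1 high-dose array well above background. Within the scan day that held both doses (2 arrays each) the difference of Epb42 was 0.63 in place of 2.74, all below background, and with scan day as a block 0 members were called. Valsartan against low-dose SXC gave 1 lower and 3 higher, against 11.7% and 13.6% of all probes. Gypc was 1.40-fold lower (-0.49 ± 0.15, limma adjusted p = 0.0188), while the 3 called higher, Epb42, Nfe2 and Rhag, were below background on every array of both groups and have no fold. These groups shared no scan day, all valsartan arrays had the lower gain, and 0 members were called with scan day or gain as a block. Valsartan against high-dose SXC gave 0 and 0, against 0.918% and 0.265% of all probes. There the difference was 0.08 ± 0.36 for Bpgm, -0.38 ± 0.44 for Fech and -0.07 ± 0.36 for Slc25a37, and within the scan day that held 6 valsartan and 2 high-dose arrays it was 0.14, -1.15 and 0.92.

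The genes most like each member were those with the highest Pearson correlation of deviations from the group means over the 26 arrays, among 12239 genes. For Nfe2 and Rhag the nearest was Add2 (r = 0.962 and 0.942), the skeleton gene named above. Rhag was next nearest to Cd52, a surface protein of lymphocytes (0.925), and Axl (0.898). Bpgm was nearest to Ybx3, Pdgfra and Snx10 (0.959, 0.950 and 0.947) and Epb42 to Mid1, Axl and Mrc1 (0.919, 0.919 and 0.915). Fech was nearest to Plcxd3 (0.908), Slc25a37 to Supt16h (0.946), Gata1 to Nhlrc2 (0.964), Klf1 to Fgfr4 (0.889, over 25 arrays) and Gypc to Zfp865 (0.783). The arrays share their slides, gain and saline pairs, so these values describe the arrays and carry no test. Nfe2, Rhag and Add2 were below background on every treated array, so their deviations there are not of a measured level. For Gata1, high-dose array 3 stood 7.17 above the next array of its group.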

How the data were processed

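Total RNA of 26 samples labelled as aorta was read on 1-colour (Cy3) Agilent arrays. The authors quantified the scans with Agilent Feature Extraction 11.0.1.1, per the file headers. The intensity values used here are its background-subtracted processed signal, deposited per spot, with no scaling across arrays. Spot flags of 0 or 1 were deposited too, with median spot and background intensity. The authors' deposited table of log2 values served as an alternative, and the sources used here do not give its method. Arrays have no count depth, and their number limits the precision.

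Control and outlier-flagged spots were left out. Levels are log2 signal relative to the 75th percentile of the array's 42877 gene spots, and 23744 of 30367 gene probes, well above background on 6 or more arrays, were tested. Probes were named by RefSeq accession without version through the GRCr8 gene list (18005 with 1 symbol, 0 with several, 12362 with none). Promoters are from RefSeq, GRCr8. A gene is represented by its brightest probe, and all probes of the members are given.

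Groups were set from the sample titles and compared in 1 fit of all 26 arrays with limma 3.58.1 in R 4.3.3 (eBayes with trend, 2-sided). Where no array of a group was well above background, the fold is a bound: the bright group's mean against the mean, per dim array, of whichever is higher, the probe's own signal or the lowest one well above background. On simulated data with 200 of 23744 probes changed, 40% of 2-fold and 78% of 4-fold changes were recovered for high-dose SXC, 43% and 77% for low-dose SXC and 37% and 79% for valsartan, each against saline. The simulated arrays had independent noise, with no slide, gain or saline-pair structure, and far fewer changed probes than were called in the real data. These rates therefore do not give the sensitivity of the tests on the real arrays. The R package data.table, version 1.17.8, read the files and matplotlib 3.10.9 made the figures.

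The members and the gene lists were chosen with earlier results of these data known. The genes named besides the members are the index globins and Alas2, up to 4 per list with the smallest p for valsartan against saline, and the 3 most alike per member. A gene of the membrane list that this rule picks is not reported here. Alternatives varied background correction, scaling, filters, probe choice, blocks (slide, scan day, gain, replicate number) and the arrays used. The median-signal column replaced the mean signal in the normexp alternative, since the files give medians.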

Additional observations from a re-analysis of the deposited data

Results flagged for a closer look

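In 80 groups of values (each probe of the members, Alas2 and the globins, and the globin index, in each treatment group), 8 had 1 array far from the others by Dixon's test, of which chance gives about 5%. Of these, 3 lay on high-dose SXC array 3, which had the smallest share of probes well above background (28.7%): Gata1 at 1.33 against -5.84 for the next array, Fech at -0.64 against -2.99, and the globin Hba-a3 at -1.87 against -6.04. The second probe of Bpgm stood apart on high-dose array 6 (-0.22 against -3.02) and on valsartan array 4 (-1.64 against -3.89). Bpgm itself stood apart on low-dose array 2 (2.75 against 2.44), as did the second probe of Hba-a1 on the same array, in the lower direction (-5.96 against -4.44). Nfe2 stood apart on valsartan array 1 (-2.35 against -4.86), where it was not well above background.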

How the results depend on the processing

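With the replicate block, 5, 5 and 4 members were called lower for the high dose, the low dose and valsartan against saline, as without it. The labels do not say that equal numbers mark a shared rat or day, and the deviations of same-numbered arrays correlated at -0.365 to 0.277, with 0 to 2 of 6 arrays per comparison closest to their own number. The paired fit changed no other member count. After normexp background correction, which lifts dim signals, 2 members were called for the low dose, 7 for valsartan (3 lower, 4 higher) and 2 between the doses. Of the 23744 probes tested, 9429, 18266 and 10619 were called there. There Epb42, Nfe2 and Ppox turned to 0.92, 0.12 and 0.13 for the high dose, Gata1 to 0.22 for the low dose, and Ppox to 0.18 for valsartan. Quantile normalisation gave 7 members for valsartan (7 lower) and 2 between the doses, with Gata1 at -0.073 and Klf1 at -0.89 for the high dose, and the authors' values gave Klf1 at -0.89 and 2 members for valsartan against the low dose. Over all probes the same comparisons gave 13592 and 3646 calls under quantile normalisation and 5647 with the authors' values. For the high dose the median over all probes, 0.22 here, was 0.54, -0.23 and -0.21 under normexp, quantile normalisation and the authors' values, with 61.1%, 75.9%, 41.6% and 41.9% of calls higher. For valsartan it was 0.18, 0.69, -0.30 and -0.27, with 56.3%, 77.9%, 38.0% and 38.8% higher. For the low dose 56.6% of calls were higher here and 41.8% when scaled to probes measured on all arrays.

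The filter of 13 arrays tested fewer members and left 2 for the low dose, 0 between the doses and 1 for valsartan against the low dose. The mean over probes turned Tal1 to -0.79, -1.30 and -0.92 for the high dose, the low dose and valsartan. Slide as a random block left 1 member for valsartan against the low dose, and scan day as a block left 0 there and 0 between the doses. Gain as a block left 1 member for valsartan against saline and 0 in both comparisons with the low dose, with Gata1 at -0.26 for the high dose and Slc25a37 at 0.26 for valsartan. On higher-gain arrays alone 0 members differed between the doses. The high-dose change of Gata1 there, -0.26, is the same estimate, since both settings rest on high-dose arrays 1 and 2. Without high-dose arrays 1 and 2, Epb42 was 0.50 against saline and 3 members differed between the doses. Leaving out each array in turn gave -0.68 to 0.065 for Epb42 and -0.43 to 1.20 for Gata1 with the high dose, and 1 to 2 members between the doses. Saline as 3 averages left 2 members for the high dose. Without saline arrays 3 and 7, Klf1 was -0.0065 for the low dose. Against the globins, 5 and 3 members could be tested for the high dose and valsartan on arrays well above background, a choice that leaves out low treated arrays. The cause of these shifts was not tested, except where fewer genes or arrays were used.

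Over all probes, 13520, 9401 and 13852 were called for the high dose, the low dose and valsartan against saline; gain as a block gave 6442 and 3256 for the high dose and valsartan, and saline as 3 averages 5635 for the low dose. Between treated groups, 5327 (high against low dose), 6011 (valsartan against low dose) and 281 (valsartan against high dose) became 1516, 1805 and 4 with slide as a random block and 0, 20 and 659 with scan day as a block, and the replicate block left 95 of the 281.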
